A study of Caenorhabditis elegans with 2 samples.

Results

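The hedgehog-related and patched-related genes of C. elegans were examined for the length of the poly(A) tails on their mRNAs. They were taken by gene name: the warthog (wrt), groundhog (grd) and ground-like (grl) genes with hog-1 and qua-1 as the ligand side, and the patched-related genes (ptr and ptc) as the receptor side. The name pattern found 57 of the 13601 genes in the table, 36 on the ligand side and 21 on the receptor side. Of these, 34 had at least 100 tags (20 ligands and 14 receptors) and were analysed; a tag is 1 tail-length call. The words ligand and receptor follow the pathway in other animals, and nothing measured here shows that a ligand acts on a receptor.

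In flies and vertebrates a secreted Hedgehog protein binds Patched, a membrane protein with a sterol-sensing domain, and so releases signalling to GLI-type transcription factors. C. elegans has no clear Hedgehog or Smoothened protein, but has expanded families of secreted hedgehog-related and of patched-related proteins. Some of the secreted proteins, in more than one of the families, carry the Hog domain, the self-processing part of Hedgehog, and others lack it. Many of these genes are active in the epidermis and other surface-lining cells, and loss of several of them disturbs the molt and the cuticle.

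The animals were whole wild-type worms of the N2 Bristol strain, with no treatment, kept on OP50 bacteria at 25 °C and harvested at the 29 h time point of the last larval stage, mid-L4. mTAIL-seq ligates an adapter to the ends of polyadenylated RNAs and reads tail length from the fluorescence signal of the sequencer. There was 1 group with 2 biological replicates, which the table holds as 1 pooled list of tail lengths per gene. All values are therefore pooled, there is no replicate error, and no test between genes was made. The 95% interval of each gene's median is the exact order-statistic interval and covers counting error only.

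The table held 17376490 tags, from 10 to 322583 per gene, with lengths of 5 to 231 nt. Ligand genes held 0.156% of these tags and receptor genes 0.0377%. Each gene was summarised by its median, and over the 8803 genes with at least 100 tags these medians centred on 80 nt (quartiles 69 and 91 nt). The stage label was set against marker lists. All 5 sperm markers were listed, with 179 to 2445 tags, as were all 6 epidermal markers, with 121 to 6141 tags. Of 6 yolk genes, which are expressed in adults, only vit-1, vit-2 and vit-6 had rows, with at most 258 tags. In RNA from whole animals, a difference in the cells present and a difference within cells cannot be told apart.

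Ligand mRNAs had tails near the typical length of the transcriptome, and receptor mRNAs had longer ones. Between the class medians, ligand minus receptor was -15.5 nt as measured. It was -8 nt against genes of similar tag number, -5.13 nt against genes of similar length and -1.80 nt after a linear fit on both, as described further on. Over the 20 ligands the medians centred on 77 nt, ranging from 58 to 99.5 nt. They centred on 92.5 nt over the 14 receptors, ranging from 74 to 120 nt. The classes overlapped: 7 of 20 ligands lay below the lowest receptor, and 5 of 14 receptors lay above the highest ligand. Of all genes analysed, 34.6% had a median below the lowest receptor's, so the ligand count was near the share of all genes. A median below the highest ligand's was found in 87.2% of all genes analysed. In 246 of the 280 possible pairs of a ligand and a receptor, the ligand had the shorter median. The ligand was the lower in 230 pairs against genes of similar tag number, in 197 against genes of similar length and in 184 by the linear fit. Among genes with 100 to 1000 tags it was in 123 of 154 pairs.

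A gene was called short or long where its median lay at least 20 nt from that of all genes and its interval lay wholly on that side. Of all genes analysed, 11.8% were short and 12.6% were long. Among the 20 ligands 1 was short and 0 were long. Among the 14 receptors 0 were short and 5 were long. By the interval alone, 9 ligands lay below that level and 5 above it, and 1 receptor lay below and 11 above it. Of all genes, 36.7% lay below and 35.0% above. The ligand shares thus stood near those of all genes, on the lower side, while the receptors lay mostly above.

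**Figure D1:**
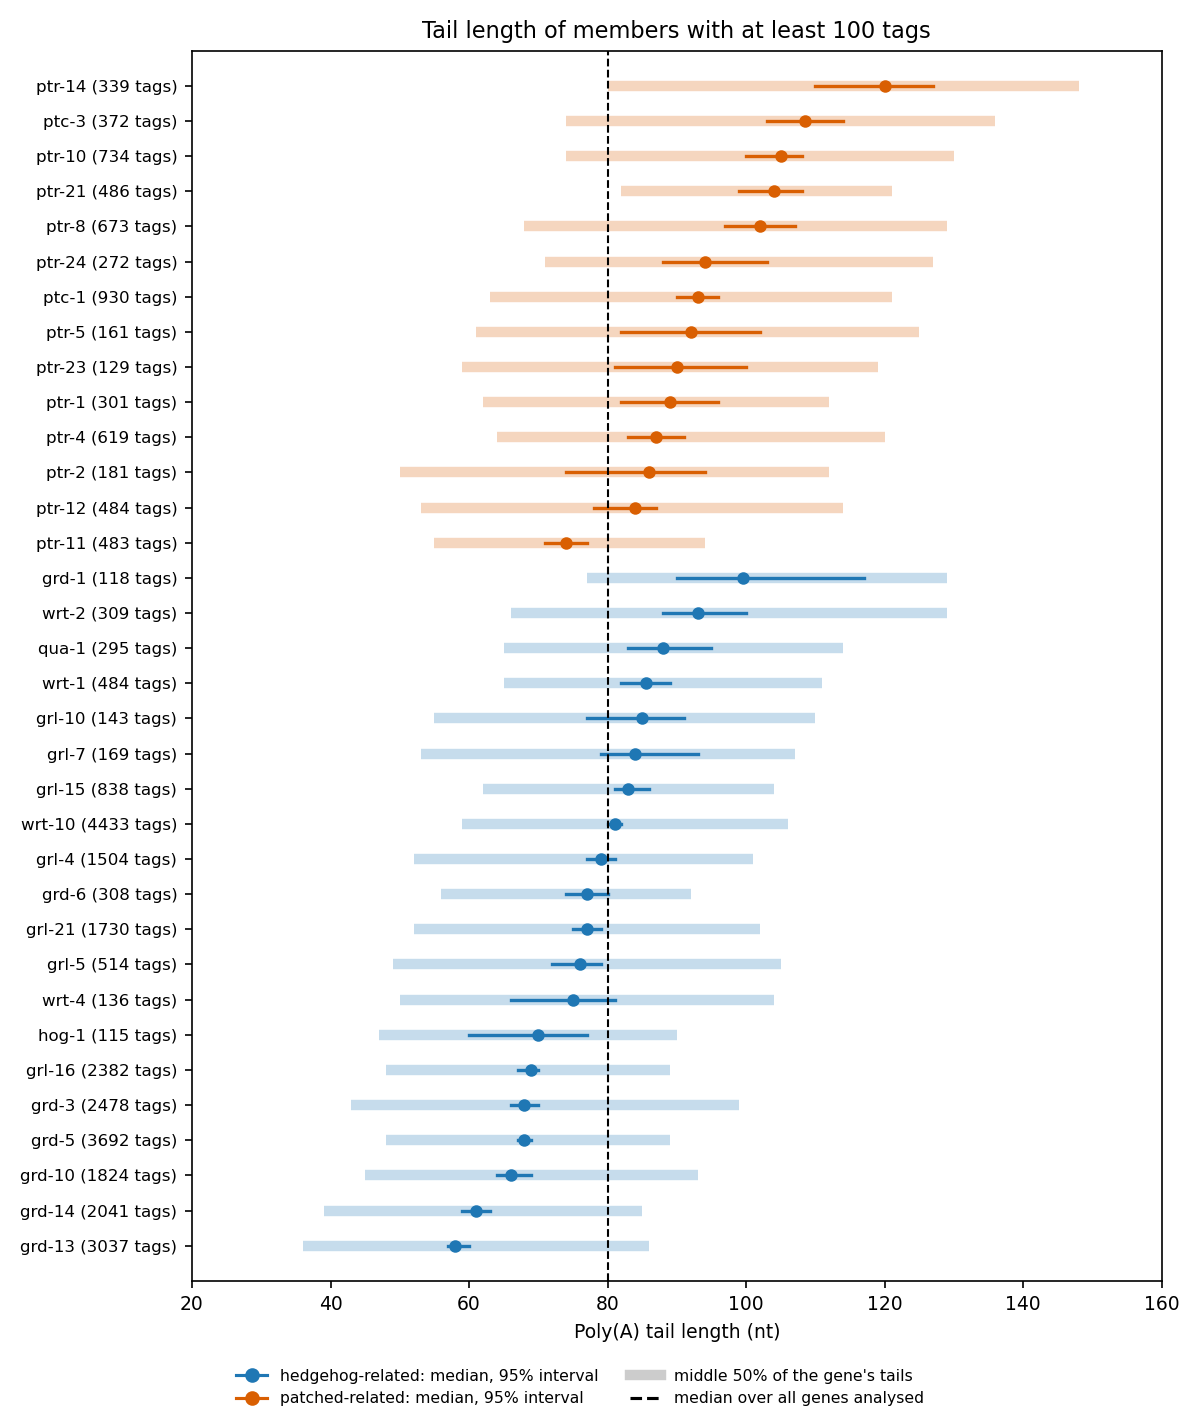
Median poly(A) tail length in nt (points) with its 95% order-statistic interval (thin lines) and the middle 50% of tails (wide bars) for the 34 members with at least 100 tags, over both replicates pooled. The dashed line is the median over all genes, 80 nt. Of the receptors, 13 of 14 lie above the ligands' median of 77 nt, and ptr-11, at 74 nt, does not. Of all genes analysed, 41.3% have a median under 77 nt.

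Among the 20 ligands with at least 100 tags, the groundhog genes held both the shortest and the longest median. grd-13 had a median of 58 nt (95% interval 57 to 60 nt, 3037 tags) and was the 1 ligand called short. That call ended with a minimum of 400 tags, with mean tails, with a call size of 30 nt, and against genes of similar tag number or gene length. grd-14 followed at 61 nt (59 to 63 nt, 2041 tags), just outside the call. These 2 genes were shorter than the other groundhog genes with at least 100 tags by more than counting error. grd-10 had a median of 66 nt (64 to 69 nt), while grd-3 and grd-5 were both at 68 nt, from 2478 and 3692 tags. grd-6 lay at 77 nt (74 to 80 nt, 308 tags). grd-1 lay above the other 6 groundhog genes with at least 100 tags, at 99.5 nt (90 to 117 nt), from only 118 tags, just under the size for a long call. Over the 7 groundhog genes analysed the median was 68 nt, and by their intervals 5 lay below 80 nt and 1 above.

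The share of short tails differed among the groundhog genes with low medians. In grd-13, 17.2% of tails (95% Wilson interval 15.9 to 18.6%) were under 30 nt, the highest share among the ligands analysed. It was 12.7% in grd-14, 10.2% in grd-3, 7.62% in grd-10 and 6.77% in grd-5. In the receptors analysed this share ran from 2.06% in ptr-21 to 9.81% in ptr-8, and the median over all genes was 6.34%, close to the shares of grd-10 and grd-5. In grd-13 the fullest bin of 10 nt was 20 to 29 nt, with 14.1% of its tags. In grd-3 it was 60 to 69 nt, with 11.2%.

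In the reference annotation (RefSeq, WBcel235) grd-13, grd-3 and grd-10 are direct neighbours among protein-coding genes. Their medians were 58, 68 and 66 nt. The interval of grd-13 was clear of the other 2, whose intervals of 66 to 70 and 64 to 69 nt overlapped. wrt-1 and wrt-10 are also neighbours, at 85.5 nt (82 to 89 nt) and 81 nt (80 to 82 nt). Their tag numbers, 484 and 4433, differed far more than their tail lengths did.

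Warthog genes had tails near or above the typical length. wrt-10, the member with the most tags of either class, was at the median of all genes, and its fullest bin was 70 to 79 nt. wrt-2 was the longest of the 4 warthog genes analysed, at 93 nt (88 to 100 nt, 309 tags). wrt-4 was the shortest, at 75 nt, and its interval of 66 to 81 nt included the median over genes. All genes analysed were also ordered by tags and cut into 10 equal groups, so that a gene could be set against the median of its own group. By that measure wrt-10 was 14 nt longer and wrt-2 was 11 nt longer. For wrt-4 the difference was -10 nt. wrt-10 thus lay further above genes of its own tag number than any other ligand analysed. It was closely followed by grd-1, at 13.5 nt from 118 tags.

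Of the 17 ground-like genes listed, 7 had at least 100 tags. Over all 17 the medians ran from 37 to 112 nt. The 7 analysed had medians from 69 nt in grl-16 (67 to 70 nt, 2382 tags) to 85 nt in grl-10 (77 to 91 nt, 143 tags). grl-7 and grl-15 were at 84 and 83 nt, grl-4 at 79 nt, grl-21 at 77 nt and grl-5 at 76 nt. Over the 7 genes, 3 lay below the median over genes by their intervals, 1 above, and the intervals of 3 included it. Of the 2 single-gene types, hog-1 was at 70 nt (60 to 77 nt, 115 tags). qua-1, which is needed for molting, was at 88 nt (83 to 95 nt, 295 tags). The intervals of hog-1 and qua-1 did not overlap.

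Among ligands the genes with more tags had the shorter tails. The 9 ligands with over 1000 tags had a median of 68 nt, with 7 intervals below 80 nt and 0 above. Over all 2049 genes with over 1000 tags it was 72 nt, with 1355 intervals below 80 nt and 440 above. The 11 ligands with 100 to 1000 tags had a median of 84 nt, against 83 nt over all 6754 genes with 100 to 1000 tags. The ligands with over 1000 tags were also shorter genes, with a median annotated gene length of 923 bp against 2311 bp for those 11. Spearman's rho between tags and median tail was -0.57 across the 20 ligands and 0.20 across the 14 receptors, against -0.30 across all genes analysed. Between gene length and median tail it was 0.51 across the ligands and 0.09 across the receptors, against 0.44 across all genes with a length. These describe genes measured in the same 2 libraries, with tags and tails read from the same calls, and carry no p-value.

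Among the 14 receptors with at least 100 tags, ptr-14 had the longest tails. Its median was 120 nt (110 to 127 nt, 339 tags), and 98.6% of all genes analysed had a shorter one. Of its tails 60.5% (95% Wilson interval 55.2 to 65.5%) exceeded 100 nt. Its fullest bin was 140 to 149 nt, with 35 tags, closely followed by 130 to 139 nt, with 33 tags. ptr-14 was longer than every other receptor analysed except ptc-3 by more than counting error, since its interval overlapped that of ptc-3. It was 38 nt above the median of its group of genes of similar tag number.

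The other 4 receptors called long were ptc-3, ptr-10, ptr-21 and ptr-8. ptc-3 was at 108.5 nt (103 to 114 nt, 372 tags) and ptr-10, whose promoter is used to mark glia and other cells, at 105 nt (100 to 108 nt, 734 tags). ptr-21 was at 104 nt (99 to 108 nt, 486 tags) and ptr-8 at 102 nt (97 to 107 nt, 673 tags). These 4 intervals overlapped one another. Tails over 100 nt made up 51.1 to 57.5% of the tags of these 4 genes. ptr-21 had the narrower spread, with the middle 50% of its tails in 39 nt, against 61 nt in ptr-8.

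The 2 Patched orthologs differed from each other. ptc-1, which acts in cytokinesis of the germline, was at 93 nt (90 to 96 nt, 930 tags), with 43.9% of tails over 100 nt. In ptc-3 that share was 57.5% (52.5 to 62.4%), and the intervals of the medians of ptc-1 and ptc-3 did not overlap. ptc-1 was nevertheless 15 nt above genes of its own tag number, and ptc-3 26.5 nt above. Against genes of similar length ptc-1 was 7 nt above and ptc-3 22.5 nt above.

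The remaining 8 receptors with at least 100 tags lay between 74 and 94 nt. ptr-24 was at 94 nt (88 to 103 nt), ptr-5 at 92 nt, ptr-23 at 90 nt and ptr-1 at 89 nt. ptr-4, which takes part in building the cuticle, was at 87 nt (83 to 91 nt, 619 tags). All 5 had intervals wholly above 80 nt. The intervals of ptr-2, at 86 nt, and ptr-12, at 84 nt, included it. ptr-11 was the exception, at 74 nt (71 to 77 nt, 483 tags), wholly below it, with 18.8% of tails over 100 nt. At nearly the same tag number ptr-21 and ptr-11 differed by more than counting error.

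**Figure D2:**
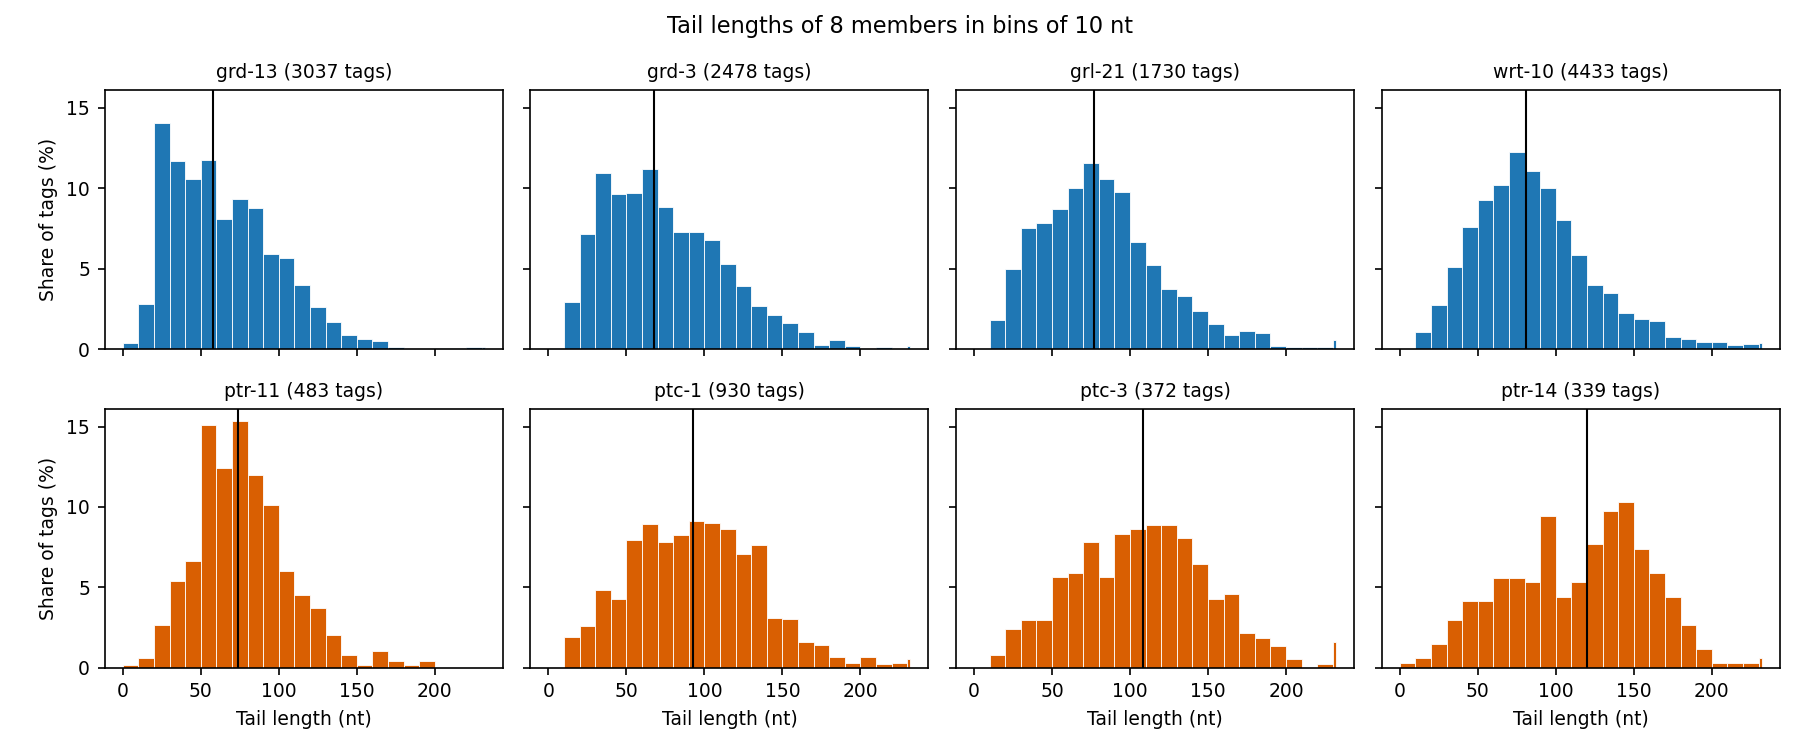
Share of each gene's tags (y axis, %) by tail length (x axis, nt, bins of 10 nt; the last bin holds 230 and 231 nt) for 4 hedgehog-related genes (top) and 4 patched-related genes (bottom), with the median as a black line. The fullest bin of grd-13 is 20 to 29 nt. That of ptr-14 is 140 to 149 nt, with 35 tags against 33 tags at 130 to 139 nt.

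The difference between the classes ran along the whole length range above the shortest tails. With each gene given equal weight, 61.6% of receptor tails were longer than 80 nt, against 46.4% of ligand tails and 48.9% over all genes. Longer than 150 nt were 9.52% of receptor, 4.52% of ligand and 7.48% of all tails. Ligand tails thus differed from those of all genes mainly at the long end, where they were scarcer. Tails under 30 nt made up 7.19% in ligands, 4.83% in receptors and 7.14% over all genes. At the longest callable value, 231 nt, lay 0.459% of ligand, 0.633% of receptor and 0.882% of all tails, which are lower bounds of the true length.

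**Figure D3:**
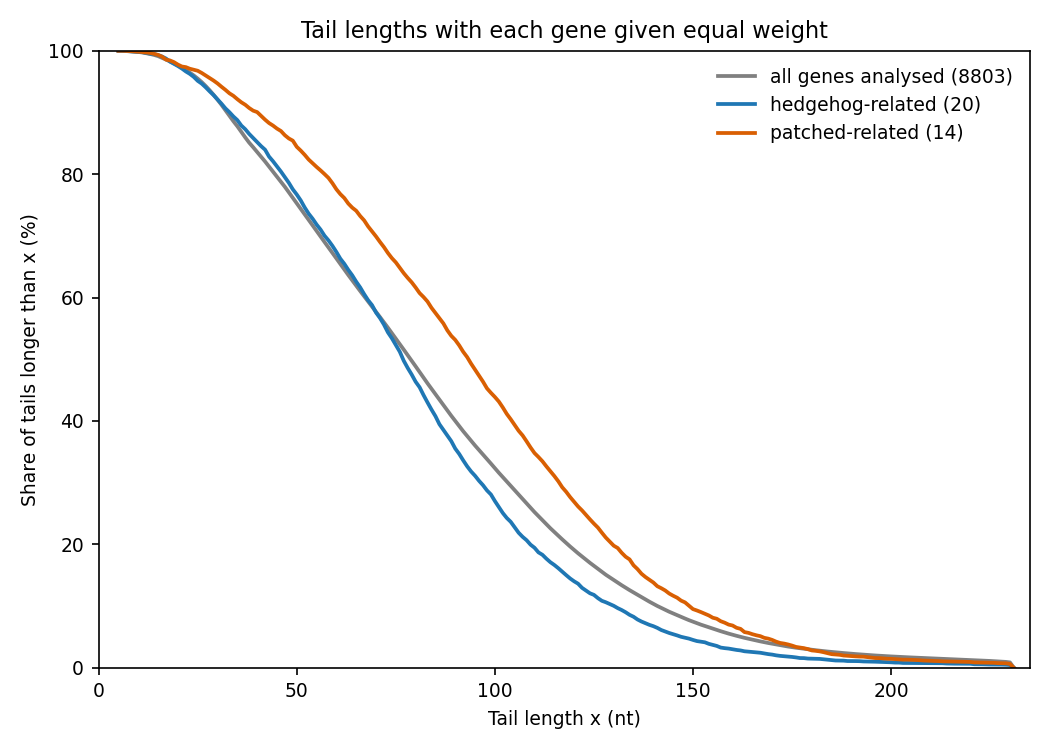
Share of tails longer than x (y axis, %) against x (nt), each gene given equal weight, for the 20 hedgehog-related genes, the 14 patched-related genes and all 8803 genes analysed. The receptor curve lies above the other 2 at middle lengths (61.6% against 46.4% and 48.9% at 80 nt), and the ligand curve falls below that of all genes at the long end.

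Tag number and gene length moved with the class. Ligands had a median of 676 tags and receptors of 427.5 tags. The annotated gene length, introns included, had a median of 1935.5 bp in ligands and 5759.5 bp in receptors. Across all genes, longer genes had longer tails: Spearman's rho was 0.44 over 8779 genes with a length, and among 10 equal groups by length the median was 65 nt in the shortest genes and 91.5 nt in the longest.

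The class difference was smaller against genes alike in these 2 measures. The 3 adjusted differences given with the class medians came from the 10 groups by tags, from 10 such groups by gene length, and from a linear fit of the gene median on log2 tags and log2 gene length over all genes. Against genes of similar tag number, 13 of 14 receptors lay above, with a median difference of 8.5 nt over all 14. Against genes of similar length 12 of 14 did, with a median difference of 6.63 nt. Of all genes analysed, 4305 of 8803 lay above their group by tags, and 4300 of 8779 above their group by length. The ligand medians were 0.5 and 1.5 nt above. In the linear fit the median residual was 1.32 nt for ligands and 3.12 nt for receptors, with 12 of 20 ligands and 10 of 14 receptors above 0, against 4274 of 8779 genes in all. The comparisons other than by tags were added after the data were seen.

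Members differed in how far they lay from the linear fit, which had an R squared of 0.256 over all genes. Among those close to it were grl-7 at 0.600 nt, qua-1 at 0.555 nt, ptr-2 at -0.460 nt and ptr-5 at -0.766 nt. The genes given next were picked as extremes. ptr-14 was 32.6 nt above the fitted value, ptr-10 21.5 nt, ptc-3 19.6 nt, ptr-8 19.5 nt and ptr-21 17.5 nt. Among ligands, wrt-10 was 13.6 nt above it and wrt-2 12.7 nt above. hog-1 lay at -15.3 nt, wrt-4 at -15.1 nt and grd-13 at -10.2 nt, and on the receptor side ptr-11 lay at -13.3 nt. The 5 receptors called long were picked by their medians in these same data, so residuals above 0 carry no added support. Only ptr-14 and ptr-10 were still called long after the fit, and the other 3 calls ended. Against genes of similar length alone, ptr-14 and ptc-3 were still called long. Against genes of similar tag number all 5 were.

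**Figure D4:**
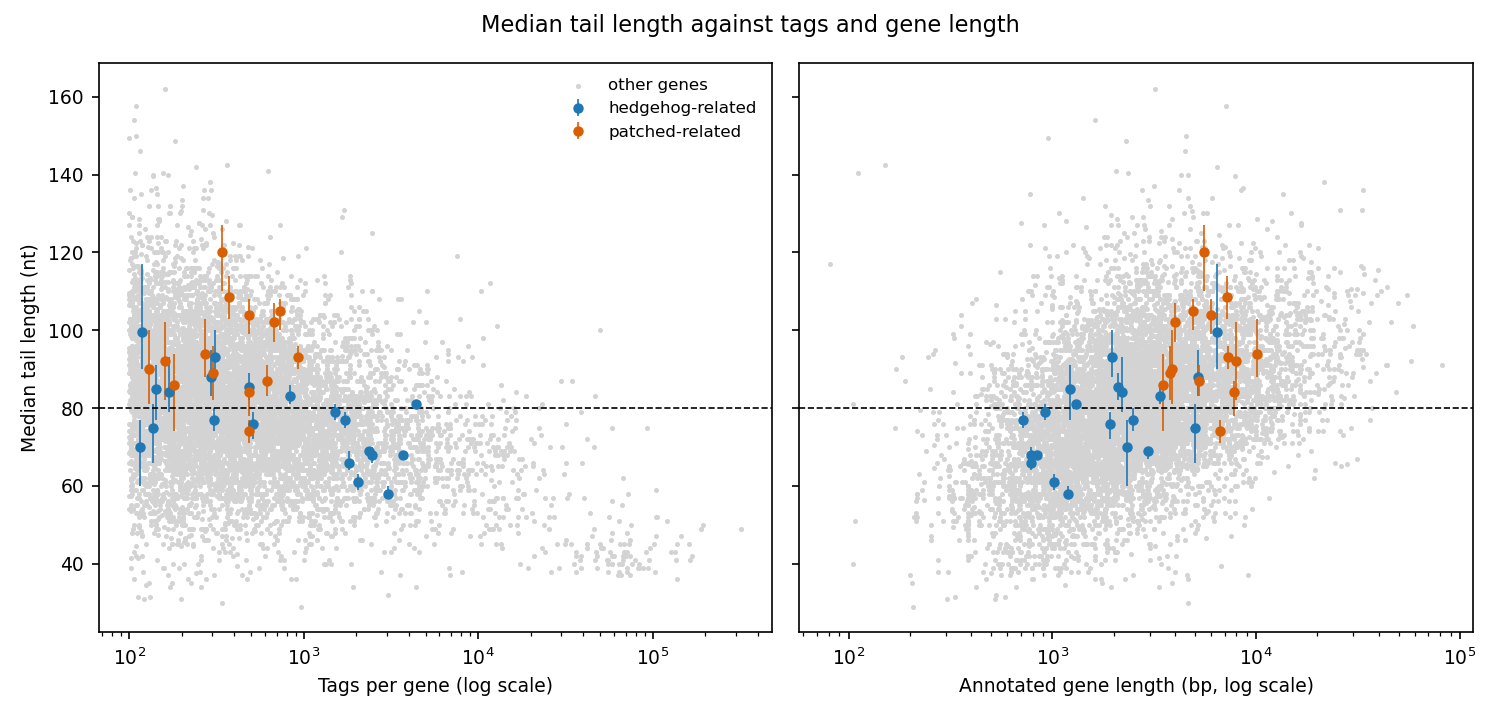
Median tail length (y axis, nt) against tags per gene (left, log scale) and annotated gene length in bp (right, log scale) for all genes analysed (grey), hedgehog-related genes (blue) and patched-related genes (orange), with 95% order-statistic intervals. The 9 ligands with over 1000 tags have a median of 68 nt, and the receptors, all with at most 930 tags, sit among the longer genes.

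The 23 members with 10 to 99 tags had wide intervals. On the ligand side these were wrt-3, wrt-5, wrt-6, wrt-8, grd-2, grd-16, grl-1, grl-6, grl-8, grl-12, grl-17, grl-20, grl-22, grl-23, grl-25 and grl-27. Their medians ran from 37 nt in grl-23, from 11 tags (26 to 76 nt), to 113.5 nt in wrt-5, from 68 tags (103 to 120 nt). Of these 16, 3 had intervals below 80 nt, 3 above it and 10 around it, where of all 4798 genes with 10 to 99 tags 542 lay below, 1102 above and 3154 around it. The 3 above were wrt-3, at 101 nt, wrt-5, and wrt-6, at 109.5 nt. The 7 receptors with few tags were ptr-3, ptr-6, ptr-15, ptr-17, ptr-18, ptr-20 and ptr-22, from 86 nt in ptr-6 to 131 nt in ptr-22 (103 to 152 nt, 46 tags). None of these 7 had an interval below 80 nt, 4 lay above it and 3 around it. With these members included, the class medians were 78.5 nt for 36 ligands and 102 nt for 21 receptors.

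A list of 12 other genes, of the pathway and of sex determination, also lay mostly above 80 nt. Gene length was not matched for this list. All 12 were listed and 7 had at least 100 tags. The median of those 7 was 91 nt, with 5 intervals above 80 nt, 1 below and 1 around it, and 1 of the 7 was long, against 35.0% above, 36.7% below and 12.6% long over all genes. daf-6, a patched-related gene of amphid glia, was at 100.5 nt (92 to 108 nt, 130 tags). The Niemann-Pick C1-related genes ncr-1 and ncr-2, which act in sterol transport and carry a sterol-sensing domain, were at 96.5 nt (89 to 105 nt) and 90 nt (86 to 97 nt). scp-1, of the SCAP type, was at 91 nt (79 to 109 nt).

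The sex-determination genes of that list were more mixed. tra-2, which encodes a membrane receptor, was at 91 nt (87 to 96 nt) and fem-1 at 89.5 nt (86 to 92 nt). fem-2, a phosphatase gene, was the one below the median over genes, at 73 nt (67 to 77 nt). Among genes with under 100 tags, the GLI-type factor gene tra-1 was at 84 nt (74 to 99 nt, 46 tags) and fem-3 at 72 nt (58 to 97 nt). The Dispatched-related gene che-14 was at 110 nt (95 to 123 nt, 85 tags). The acyltransferase-related genes hhat-1 and hhat-2 were at 101 and 105 nt. The patched-related gene ptr-25, which the table lists under a protein identifier and which is named here after its value was seen, was at 98 nt (88 to 104 nt, 297 tags).

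Genes that run the molt also lay mostly above 80 nt. Of a list of 21, 19 had at least 100 tags, with a median of 94 nt. Of these, 17 had intervals above 80 nt and 0 had one below it, and 5 were long, where 35.0% of all genes lay above, 36.7% below and 12.6% were long. They ranged from the kinase gene nekl-3, at 77 nt (71 to 83 nt), to mlt-2, at 105.5 nt (93 to 115 nt). The nuclear receptor genes nhr-23 and nhr-25, which drive molting programmes, were at 99 and 98 nt. lrp-1, a megalin-related receptor gene, was long at 103 nt (100 to 105 nt) from 2063 tags. noah-1 and noah-2, which encode apical matrix proteins, had 2973 and 3826 tags, with medians of 88 nt (87 to 90 nt) and 85 nt (84 to 86 nt). These 3 genes had tag numbers in the range of the abundant ligands, whose medians did not exceed 81 nt. Gene length was not matched in this comparison. The 9 ligands with over 1000 tags had a median gene length of 923 bp. Against genes of similar length their median difference was 1 nt.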

How the data were processed

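mTAIL-seq measured tail lengths in 2 biological replicates of whole L4 animals. Per the labels' protocols, fragments of 250 to 1000 nt were sequenced with 51 and 251 cycles, and tails were called with tailseeker2. The submitters' processing notes also name STAR and bedtools, without versions. For the genome build and the gene models, the sources used here give no name. The authors deposited, per gene, a count of tags that is not normalized and a list of lengths in nt, both pooled over the replicates; the deposited counts, means and medians differed from the lists in 0 genes. No source used here says whether tags were collapsed to molecules, and the intervals cover counting error only. Depth per replicate is unknown.

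Genes needed at least 100 tags. Medians, order-statistic intervals, calls and Wilson intervals were computed with Python 3.11.15, numpy 2.4.6, pandas 2.3.3 and scipy 1.17.1, and the calls were tested on simulated data. All 57 members matched the WBcel235 RefSeq table by sequence name; it gave neighbours and gene lengths. It holds 86 protein-coding genes of these families, of which 28 were not analysed here because they have no row in the table used; a row needs at least 10 tags. Members, lists and tests were chosen with earlier results of these data known. The naming rule covered all hog-1, qua-1 and ptc genes, extremes and most abundant members of each family, called genes and genes near the thresholds; the remaining analysed members were named afterwards. Near-identical relatives could share tags, which was not checked because no sequences were used.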

Additional observations from a re-analysis of the deposited data

How the results depend on the processing

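No paired analysis was possible because the table pools both replicates, and for the same reason no fit without replicate 1 or 2 could be made. The ligand median lay between 72.5 and 84 nt and the receptor median between 92.5 and 102 nt in the alternatives run; settings that change the centre or the call size leave these medians as they are. The difference was negative in all settings run, from -23.5 nt over all listed genes to -1.80 nt after the linear fit on tags and gene length, and was -5.13 nt within groups of similar gene length. Counts of called genes were small and moved more. Over all listed genes 4 ligands were short, 2 were long and 9 receptors were long, where 12.3% of all genes were short and 12.4% long. With at least 400 tags 0 ligands were short and 3 receptors long, where 447 and 466 of 4454 genes were, and the centre was 76 nt. With mean tails 0 ligands were short, 1 was long and 3 receptors were long, where 8.08 and 9.19% of all genes were. With a call size of 10 nt 7 ligands were short, 2 long and 9 receptors long, where 27.1% of all genes were on either side. With 30 nt 0 ligands were short and 1 receptor long, where 3.75 and 4.50% of all genes were. Within groups of similar tag number 0 ligands were short and 5 receptors long, where 11.1 and 10.6% of all genes were. Within groups of similar gene length 0 ligands were short and 2 receptors long, where 7.62 and 10.5% of all genes were. After the linear fit 0 ligands were short and 2 receptors long, where 7.15 and 8.18% of all genes were. Among genes with 100 to 1000 tags the difference was -8.5 nt, 0 ligands were short, because grd-13 has more tags, and 5 receptors were long, where 8.69 and 15.2% of all such genes were. The cause of the other changes was not tested. In the remaining settings (tails of at least 20 nt, 231 nt left out, or daf-6, or ptr-25, added to the receptors) the ligand counts were as reported, and 5 or 6 receptors were long; che-14, with under 100 tags, could not enter. Of the 34 members, 34 medians stayed within their intervals under both changes of the tails counted, and 11 lay outside when the mean was used. Depth limits the members with under 100 tags most, and gene lengths come from an annotation that may differ from the authors'.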
